A study of Mus musculus with 4 samples.

Results

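The genes described here belong to the GDNF-Ret signal at the tips of the ureteric bud, the branching epithelium that becomes the collecting duct system of the kidney. They are Ret, Gfra1, Etv4, Etv5, Wnt11, Spry1, Dusp6, Sox8 and Slco4c1, found on the array through the transcript accession of each probe. All 9 had a probe, 12 probes together out of 41174, and all 9 were among the 16052 genes tested. GDNF is made by the mesenchyme around the bud and binds Gfra1, the co-receptor that brings it to the receptor tyrosine kinase Ret on tip cells. Ret then acts through the ETS transcription factors Etv4 and Etv5, keeps the secreted signal Wnt11 on, and induces its own inhibitors, among them Spry1 and Dusp6. Branching of the bud depends on this signal, and Etv4, Etv5, Spry1, Dusp6 and Sox8 are also active in nephron progenitors, the mesenchymal cells that surround each tip.

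The study compared collecting duct and ureteric bud cells, sorted by their green fluorescence on postnatal day 1, that lacked or kept the (pro)renin receptor (PRR, gene Atp6ap2). Knockout mice were HoxB7CreEGFP+ with PRR flox/flox, and wild-type mice were CreEGFP+ with PRR+/+, so both genotypes carried the Cre and EGFP transgene. HoxB7 drives it in the ureteric bud lineage, and RNA came from pooled cells, with 0.5 µg in each labelling reaction. Of 4 two-colour arrays on 1 slide, knockout arrays 1 and 2 held knockout RNA in Cy5 with wild-type pool 1 or pool 2 in Cy3, and 1 self array for each wild-type pool held that pool in both dyes. The groups follow the source named for each channel. The sample titles name the genotypes the other way round, and by them every direction below would turn. The descriptions also exchange the pools of the self arrays. Nothing in the labels says how the animals were divided among arrays, and the knockout RNA carries no pool number, so the spread behind each p-value may be technical.

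Between 18424 and 22713 probes were well above background in Cy5 on the 4 arrays, and between 14936 and 18574 in Cy3 on 3 of them. Cy3 of knockout array 1 held only 28 such probes and was left aside, which left 7 usable channels. Atp6ap2, the targeted gene, stood at 8.08 and 7.72 (log2 Cy5 level) on knockout arrays 1 and 2 and at 8.37 and 8.51 in wild-type pools 1 and 2. Its difference was -0.54 ± 0.17 (SE, 2 arrays a genotype; adjusted p = 0.8 in limma), and where its probe lies relative to the deleted part is not known here. Of the 10 ureteric bud and collecting duct markers all 10 were measured, with summed Cy5 signals of 48400 and 50100 on the knockout arrays and 49100 and 42500 in pools 1 and 2. Wild-type pool 2 differed from the other samples in proximal tubule genes. The sodium-phosphate transporter gene Slc34a1 stood at 12.29 there, against 9.10 in pool 1 and 8.41 and 7.76 on the knockout arrays.

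Most of the tip genes stood lower in knockout than in wild type in Cy5. By the brightest probe of each gene, 5 of them were lower in every channel with signal. For Etv4 and Etv5 among these the gap was narrow. A second Gfra1 probe did not separate the genotypes, with 9.15 on knockout array 1 and 9.06 in pool 2 (log2 Cy5 level). Gfra1, Etv4, Etv5, Wnt11 and Slco4c1 had knockout means of 63.4% to 72.2% of the wild-type mean, Ret had 81.6% and Spry1 82.4%, while Dusp6 had 115%. Sox8 read 113%, but it entered the comparison through the knockout arrays alone, since it was not well above background in pool 1, and that entry favours a higher knockout value. None passed the test. In limma on Cy5 levels, with p-values adjusted over all genes tested, 0 of 9 were called lower and 0 of 9 higher, where 0% of all genes were called in either direction. At an unadjusted p under 0.05 in limma, 4 of 9 were lower, against 1.07% of all genes, and 0 of 9 were higher, against 3.11%. The 9 genes were chosen with earlier results of these data known, so the shares given here describe them and test nothing. Over all 16052 genes, 671 had such a p (171 lower, 500 higher), where 803 would be expected by chance. The median difference of the 9 genes was -0.47 on the log2 scale, against 0.025 over all genes tested. Both knockout arrays lay below both wild-type arrays in 6 of 9 genes, against 17.1% of all genes, and above both in 1 of 9, against 22.5%. That 1 was Dusp6, whose value of 11.62 on knockout array 1 was level with the 11.62 of pool 1 (log2 Cy5 level). In bulk RNA, fewer tip cells in a pool and less RNA of a gene per tip cell cannot be told apart. With 2 arrays against 2, an exact two-sided permutation test of a single gene cannot give a p below 0.333.

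**Figure D1:**
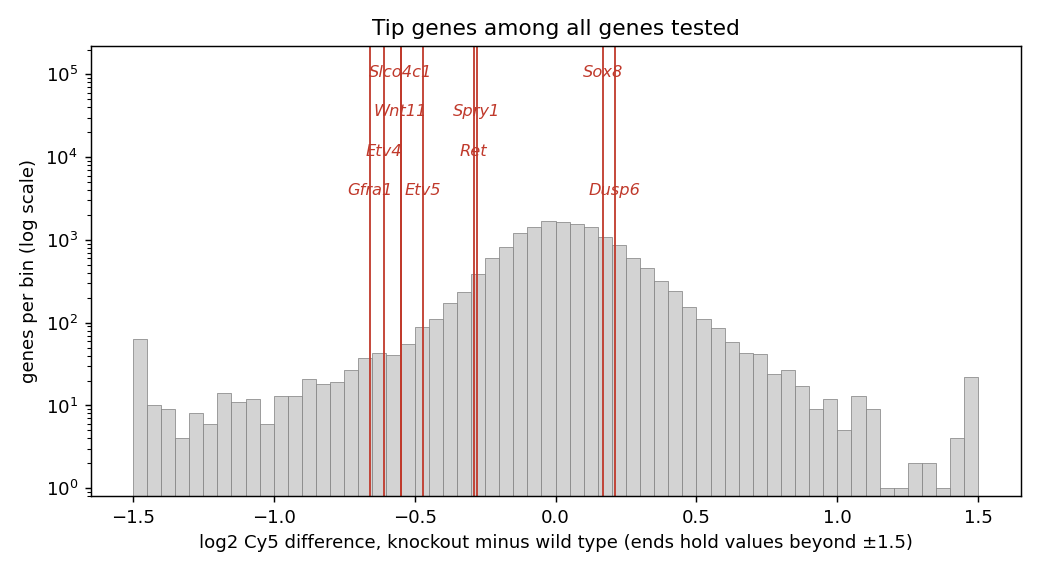
Histogram of the log2 Cy5 difference, knockout minus wild type, over all 16052 genes tested, with genes per bin on a log scale and red lines at the 9 tip genes. 7 lines lie below 0 and the lines of Dusp6 and Sox8 above it, and the lines of Wnt11 and Slco4c1 coincide at -0.55.

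The receptor complex was read by its co-receptor and its kinase. Gfra1 stood at 9.27 and 8.94 on knockout arrays 1 and 2 and at 9.59 and 9.94 in wild-type pools 1 and 2 (log2 Cy5 level). Both knockout values were below both wild-type values, and the difference was -0.66 ± 0.19 (SE, 2 arrays a genotype; adjusted p = 0.8 in limma; 95% interval -1.15 to -0.16). A second Gfra1 probe read 9.15 and 8.71 in knockout and 9.48 and 9.06 in wild type. By that probe knockout array 1 lay above pool 2, and the difference was -0.35 ± 0.20 (limma adjusted p = 0.874 over all probes), so the probes shared the direction but not the size.

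Ret, the receptor itself, was printed as 10 spots of the same probe on every array, which shows how well a dim gene was read. The mean of the 10 spots was 6.74 and 6.65 on knockout arrays 1 and 2 and 7.02 and 6.96 in pools 1 and 2 (log2 Cy5 level). The SD over spots was 0.13 and 0.11 on the knockout arrays and 0.09 and 0.08 in the pools. The highest of the 20 knockout spots, at 6.91, lay under the lowest spot of pool 1, at 6.93, and above the lowest of pool 2, at 6.81. The difference between genotypes was -0.29 ± 0.11 (SE, 2 arrays a genotype; adjusted p = 0.8 in limma). Spots of 1 array measure the scan and not the animals, and enter the test as their mean. Ret was near the lower end of the scale: its median raw Cy5 intensities ran from 62 to 138, and 8 of 10 spots were well above background on knockout array 2. An offset of 50 added before the logarithm narrows differences of dim genes, and with an offset of 10 Ret stood at -0.48 ± 0.15.

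**Figure D2:**
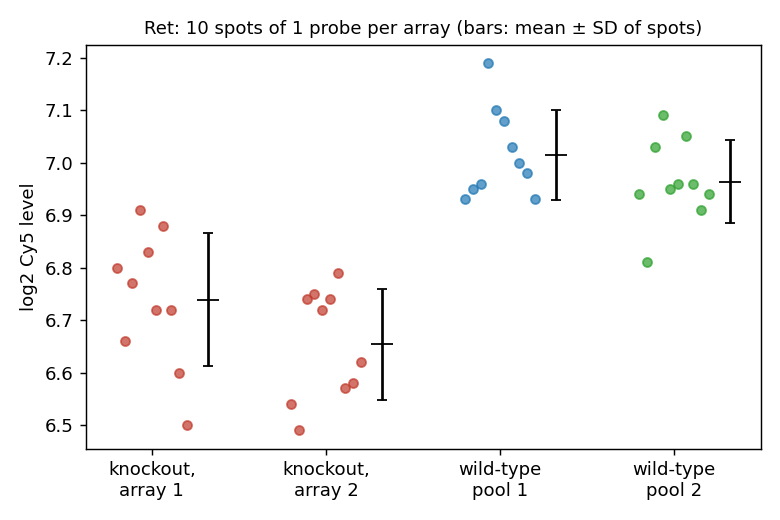
Log2 Cy5 level of Ret in each of its 10 spots on each of the 4 arrays, in arbitrary horizontal order, with the mean ± SD of the spots beside them. Knockout spots lie between 6.49 and 6.91 and wild-type spots between 6.81 and 7.19.

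Of the transcription factors downstream of Ret, Etv4 and Etv5 read lower on both knockout arrays, and Sox8 was near the detection limit. Etv4 stood at 8.79 and 8.55 on the knockout arrays and at 9.07 and 9.49 in pools 1 and 2 (log2 Cy5 level), without overlap. Its difference was -0.61 ± 0.19 (SE; limma adjusted p = 0.8). Etv5, which shares functions with Etv4 in the tip, stood at 7.72 and 7.57 in knockout and at 8.04 and 8.19 in pools 1 and 2, again without overlap. Its difference was -0.47 ± 0.13 (SE; limma adjusted p = 0.8). Another Etv5 probe was well above background on 1 array of each genotype and did not enter the comparison. It read -0.15 ± 0.10. Sox8, a SoxE factor needed with its relatives for normal branching, read 6.93 and 6.63 in knockout and 6.49 and 6.74 in pools 1 and 2, where it was well above background on both knockout arrays and in pool 2 but not in pool 1. The groups overlapped, with a difference of 0.17 ± 0.17 (95% interval -0.26 to 0.61; limma adjusted p = 0.816), and with 75th percentile scaling in place of quantile normalization it turned to -0.05. Its other probe was not well above background on any array in Cy5.

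The outputs at the tip were Wnt11, a secreted Wnt that signals back to the mesenchyme, and Slco4c1, an organic anion transporter gene used as a tip marker and also known from the proximal tubule. Wnt11 stood at 9.88 and 9.24 on knockout arrays 1 and 2 and at 10.19 and 10.03 in pools 1 and 2 (log2 Cy5 level). The knockout values were lower but far apart, with an SD of 0.45 against 0.12 in wild type, and the difference was -0.55 ± 0.24 (SE; limma adjusted p = 0.8). Slco4c1 stood at 7.69 and 7.61 in knockout and at 8.02 and 8.37 in pools 1 and 2, without overlap. Its difference was -0.55 ± 0.16 (SE; limma adjusted p = 0.8).

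The feedback inhibitors did not share 1 pattern. Spry1, an inhibitor of receptor tyrosine kinase signalling that restrains Ret, stood at 11.12 and 10.80 in knockout and at 11.54 and 10.93 in pools 1 and 2 (log2 Cy5 level). Knockout array 1 lay above pool 2, and the difference was -0.28 ± 0.25 (95% interval -0.93 to 0.37; limma adjusted p = 0.81). Dusp6, a MAP kinase phosphatase, stood at 11.62 and 11.65 in knockout and at 11.62 and 11.24 in pools 1 and 2. Knockout was thus level with pool 1 and above pool 2, with a difference of 0.21 ± 0.16 (95% interval -0.22 to 0.63; limma adjusted p = 0.804). With the scanner software's processed signal Dusp6 turned to -0.76, against -0.07 for the median gene on the array. With median scaling, which moved the median gene to 0.33, Spry1 read 0.31.

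Setting knockout against each wild-type pool separately, and against pool 2 within knockout array 2, separated the genes that were lower everywhere from those that were not. These comparisons share the knockout arrays and rest on 1 array per pool, so they carry no test. Against pool 1, 6 of 9 genes had a knockout mean of at most 80% of wild type (Gfra1, Etv4, Etv5, Wnt11, Spry1 and Slco4c1), against 3.18% of all genes. Against pool 2 it was 5 of 9, the same genes without Spry1, against 12.6% of all genes. On the shared array, with the dye difference of the pool 2 self array taken off, these 5 were again at 80% or less, against 13.2% of all genes. A difference of 1.5-fold or more was seen in 2 of 9 against pool 1 (Wnt11 and Spry1), against 0.517% of all genes. It was seen in 3 of 9 against pool 2 (Gfra1, Etv4 and Slco4c1), against 5.48%, and in 4 of 9 on the shared array, where Wnt11 joined them, against 5.54%. These counts use the brightest probe of each gene. The second Gfra1 probe read 9.15 and 8.71 in knockout and 9.06 in pool 2 (log2 Cy5 level). By it Gfra1 would reach neither size against pool 2. Gfra1, Etv4, Etv5, Wnt11, Slco4c1 and Ret were below 0 in all 3 comparisons, 6 of 9 against 19.3% of all genes.

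Gfra1 had 71.7% of its pool 1 level, 56.1% of its pool 2 level and 54.2% of pool 2 on the shared array. Etv4 had 75.8%, 56.5% and 54.6% in the same order. Slco4c1 had 76.9%, 60.6% and 59.3%. By these probes the 3 genes lay further below pool 2 than below pool 1. The second Gfra1 probe gave the opposite order, with knockout at 9.15 and 8.71, pool 1 at 9.48 and pool 2 at 9.06 (log2 Cy5 level). Etv5 had 75.9% of pool 1, 68.7% of pool 2 and 67.7% on the shared array. Wnt11 had 64.5%, 72.2% and 55.6%, so that its order of the pools was the opposite. Ret had 80.1% of pool 1 and 83.1% of pool 2 between arrays but 96.4% on the shared array, where its ratio of Cy5 over Cy3 was -0.04 on the log2 scale. Spry1 had 66.6% of pool 1, 102% of pool 2 and 93.4% on the shared array, so that it lay well below pool 1 and near pool 2. Dusp6 had 101%, 132% and 141%. Sox8 had 103% of pool 2 in Cy5, and no share of pool 1 is given because it was not well above background there in Cy5. Its 98.0% on the shared array gives no direction, since it was not well above background in Cy3 of the pool 2 self array.

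**Figure D3:**
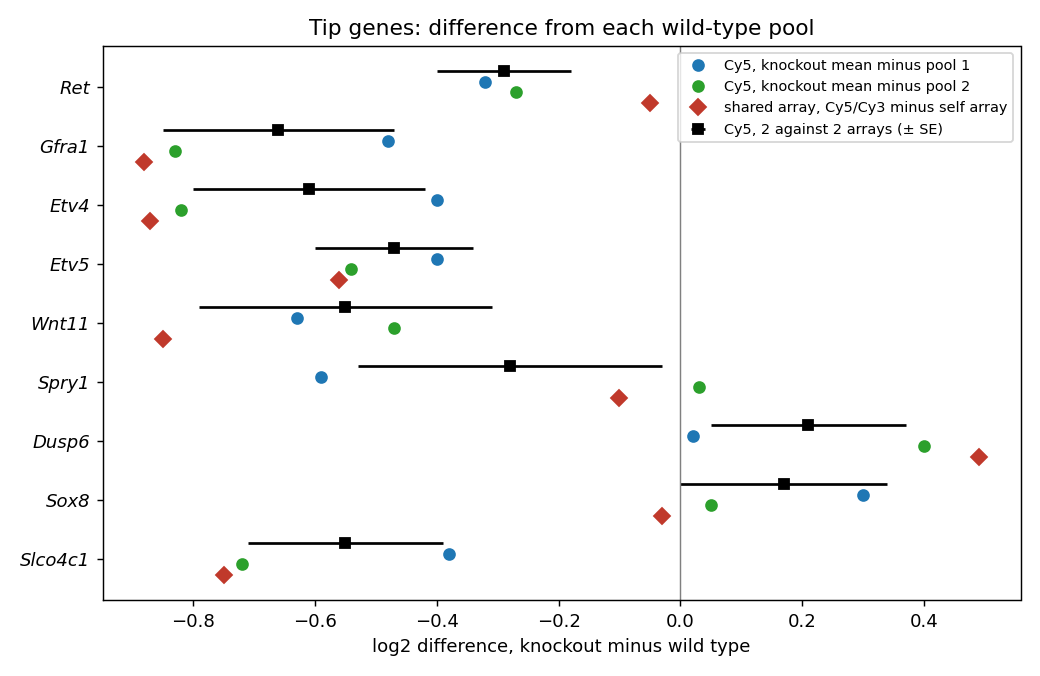
Log2 difference, knockout minus wild type, of the 9 tip genes: black squares give the Cy5 difference of 2 against 2 arrays with its SE, circles the knockout mean minus pool 1 or pool 2 in Cy5, and diamonds the shared array's ratio minus that of the pool 2 self array. Gfra1, Etv4, Etv5, Wnt11 and Slco4c1 lie left of 0 by every measure, while Spry1 and Sox8 have points on both sides of 0 and Dusp6 lies above it, by 0.02 against pool 1. The Sox8 points against pool 1 and on the shared array rest in part on channels not well above background.

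The Cy3 channels gave 3 more readings of the wild-type pools. With all 7 channels normalized together, both knockout channels lay below all 5 wild-type channels in 5 of 9 genes, against 7.87% of all genes, and above all of them in 0 of 9, against 12.3%. The 5 were Gfra1, Etv4, Etv5, Wnt11 and Slco4c1. For Gfra1 the knockout channels read 8.76 and 8.45 and the wild-type channels 9.06 to 9.40 (log2, 7 channels together), and for Wnt11 9.34 and 8.72 against 9.48 to 9.64. For Slco4c1 the values were 7.36 and 7.29 against 7.64 to 7.93. For Etv4 and Etv5 the gap was narrow, since knockout array 1 read 8.31 and 7.39 and Cy3 of the pool 1 self array 8.34 and 7.40. Ret did not separate: its knockout channels read 6.64 and 6.58, and Cy3 of knockout array 2, which held pool 2, read 6.61. Repeat readings of pool 2 in 3 channels spread over 0.05 to 0.26 across the 9 genes, and those of pool 1 in 2 channels differed by 0.25 at most.

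**Figure D4:**
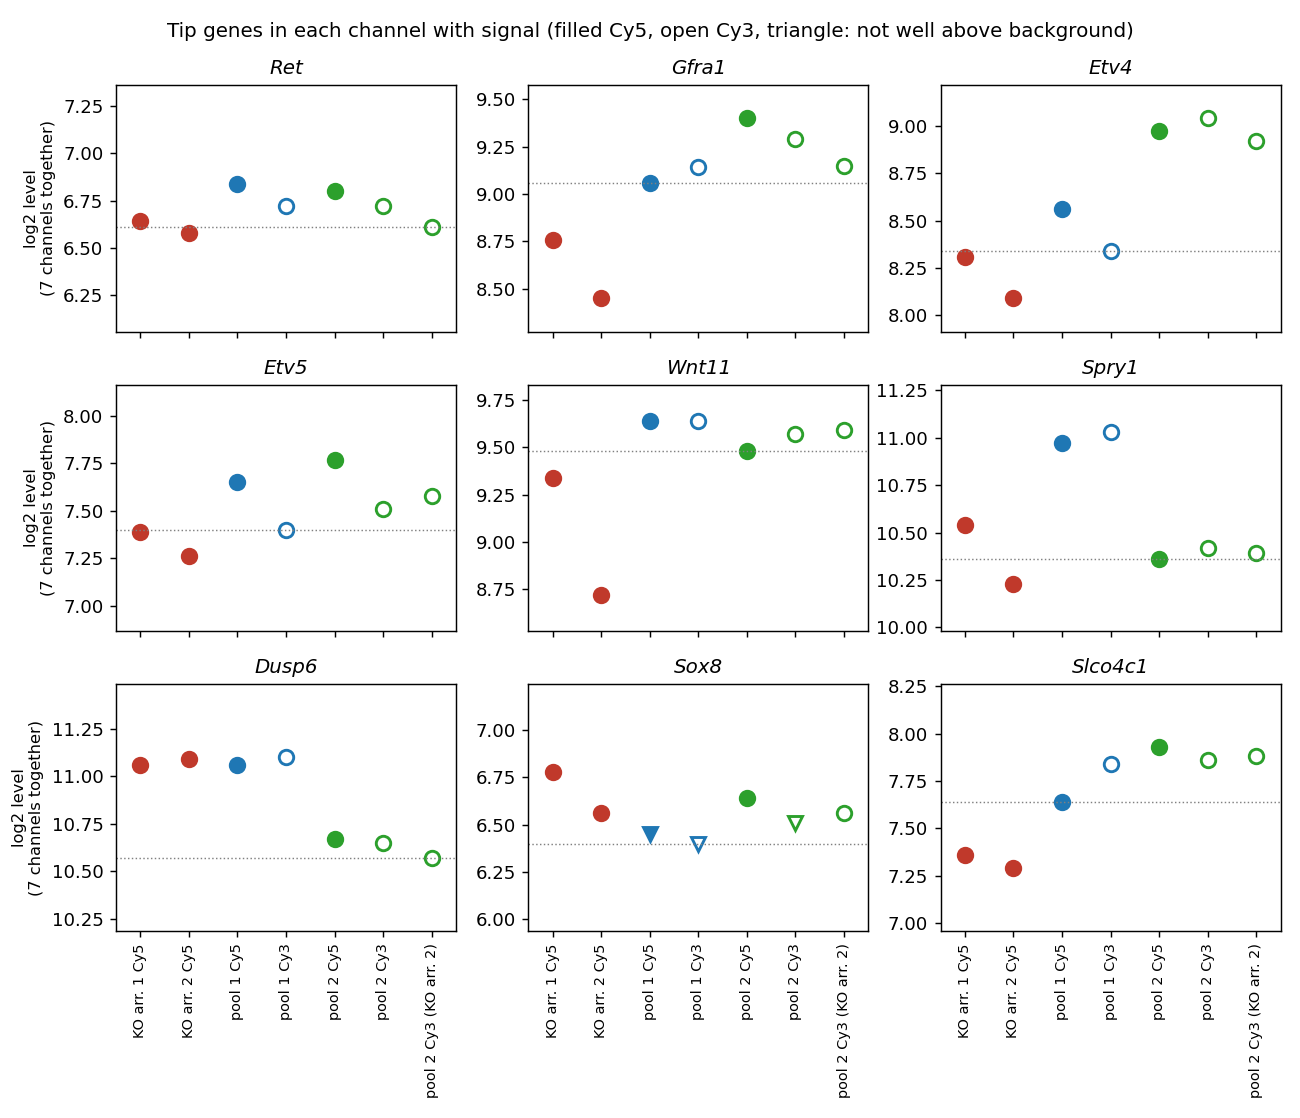
Log2 level of each tip gene in the 7 usable channels, normalized together, with knockout in red, pool 1 in blue and pool 2 in green, Cy5 filled and Cy3 open. Triangles mark channels not well above background, the dotted line is the lowest wild-type channel, and all panels span the same height. Both red points lie below the dotted line for Gfra1, Etv4, Etv5, Wnt11 and Slco4c1.

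The wild-type pools differed from each other in some of these genes about as much as from knockout. Pool 2 stood below pool 1 by 0.61 in Cy5 and 0.62 in Cy3 for Spry1 and by 0.38 and 0.45 for Dusp6, on the log2 scale. Etv4 was higher in pool 2, by 0.41 in Cy5 and 0.70 in Cy3, and Gfra1 by 0.34 and 0.15. The second Gfra1 probe went the other way in Cy5, at 9.06 in pool 2 and 9.48 in pool 1. In Cy5, 2 of 9 genes, Spry1 and Dusp6, had at most 80% of their pool 1 level in pool 2, against 15.9% of all genes, and in Cy3 also 2 of 9, against 15.6%. Ret, Etv5 and Wnt11 differed between the pools by 0.16 at most in either dye of the self arrays.

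The knockout arrays differed too, with array 2 below array 1 in 8 of 9 genes, against 47.4% of all genes, and by a median of -0.24. Wnt11 was lower by 0.64 and Gfra1 by 0.33. These were the 2 of 9 genes at 80% of array 1 or less, against 1.71% of all genes, and Dusp6 was higher by 0.03. Without knockout array 2 the median difference of the 9 genes from wild type was -0.25, and without knockout array 1 it was -0.55. Without the pool 1 array 4 of 9 genes were called lower (Gfra1, Etv4, Etv5 and Slco4c1, limma adjusted p from 0.00639 to 0.0205), against 10.4% of all genes. Dusp6 was then called higher (adjusted p = 0.0323), against 15.4% of all genes. Without the pool 2 array 0 of 9 were called, against 0.0436% of all genes called higher and 0% lower. Each of these fits has 1 wild-type array and assumes that it varies like the knockout arrays, and the fit without pool 1 compares knockout with the pool that held the proximal tubule signal.

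The stretches before the transcription start were searched on both strands for CCGGAA (the reverse reads TTCCGG). It is a form of the ETS site, which Etv4 and Etv5 recognise as other ETS factors do. Forms of the site without CCGGAA were not searched. RefSeq promoter sequences (GRCm38.p6) were matched for 7 of the 9 genes; Ret and Etv4 were not matched. Within 250 bases before a start, 2 of 7 genes held CCGGAA, Gfra1 and Wnt11, where 13.6% of 26994 genes did. No match was found for Etv5, Slco4c1 and Spry1, which also read lower in knockout, for Dusp6 and Sox8, or at the upstream Wnt11 start. The longer consensus ACCGGAAGT, which contains CCGGAA, was in 0 of 7 genes and in 0.889% of all genes. The sequences of Gfra1 (chr19:58455399-58455648, minus strand) and of the downstream start of Wnt11 (chr7:98838595-98838844, plus strand) are shown as the members with a match, and that of Dusp6 (chr10:99262981-99263230, plus strand) as a member without a match whose knockout mean was not below wild type. Each reads 5′ to 3′ and ends at the base before the start, with CCGGAA or its reverse in capitals.
Gfra1: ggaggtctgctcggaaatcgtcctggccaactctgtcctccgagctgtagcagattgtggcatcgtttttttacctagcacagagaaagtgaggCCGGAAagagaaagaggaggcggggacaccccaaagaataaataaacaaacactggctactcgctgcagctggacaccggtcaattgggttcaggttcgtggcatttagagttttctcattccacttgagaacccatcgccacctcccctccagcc
Wnt11: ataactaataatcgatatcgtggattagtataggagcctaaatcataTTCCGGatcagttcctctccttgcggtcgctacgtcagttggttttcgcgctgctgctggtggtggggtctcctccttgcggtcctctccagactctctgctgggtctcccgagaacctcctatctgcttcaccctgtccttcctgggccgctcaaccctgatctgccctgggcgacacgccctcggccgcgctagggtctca
Dusp6: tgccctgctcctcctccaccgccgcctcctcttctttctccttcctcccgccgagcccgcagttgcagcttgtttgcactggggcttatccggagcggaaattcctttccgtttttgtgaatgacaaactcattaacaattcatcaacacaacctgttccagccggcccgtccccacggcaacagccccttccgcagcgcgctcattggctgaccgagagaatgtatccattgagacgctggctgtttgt
The match lies 156 to 151 bases before the Gfra1 start on the plus orientation of the gene, and 203 to 198 bases before the Wnt11 start in reverse. A match describes these letters and is not evidence of binding.

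Other genes of the pathway, from lists set beside the 9, had medians nearer 0, and none was called in either direction. Of 14 ligands, co-receptors and other tip receptors 6 were measured, with a median of -0.02. Gdnf itself was well above background on 1 of 4 arrays in Cy5 and was not tested. Met, the receptor for hepatocyte growth factor, stood at 7.66 and 7.61 in knockout and 7.96 and 8.08 in pools 1 and 2 (-0.39 ± 0.12, SE; limma adjusted p = 0.8). Of 20 Ret adaptors and effectors 18 were measured, with a median of 0.05, 5 below 0 and 13 above. In this list Ptpn11, the phosphatase that relays receptor signals to Ras, stood at 0.26 ± 0.14. The regulators of Ret in the bud had a median of 0.13 over 11 of 13 genes. Among them Lhx1, a homeobox factor of the bud and early nephron, stood at -0.70 ± 0.30 and the retinoic acid receptor gene Rarb at -0.30 ± 0.13.

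Another list was set down as genes that depend on GDNF or on Etv4 and Etv5. That dependence was not tested here, and Lhx1 and Emx2 are also in the list of Ret regulators. Its genes split, with 6 of 10 measured below 0 and 4 above, where 44.7% of all genes were below, and a median of -0.12. Those with the smallest p were Met, the chemokine gene Cxcl12 (-0.50 ± 0.17, SE), Wnt4, a Wnt of early nephrons (0.43 ± 0.17), and Lhx1, each at a limma adjusted p of 0.8. Cxcr4, the chemokine receptor induced by Etv4 and Etv5, stood at -0.09. In this list both knockout arrays lay below both wild-type arrays in 6 of 10 genes, against 17.1% of all genes, and above in 4 of 10, against 22.5%. Of 11 other MAPK feedback inhibitors 5 were measured, with a median of -0.11. Spry2 and Spry4 were not well above background on any array in Cy5, and Spred2, an inhibitor of Raf activation, stood at -0.28 ± 0.14. Dusp9, another such phosphatase, stood at -0.48 ± 0.33, all of it against pool 2 (-0.96), with 0.00 against pool 1. Regulators of Gdnf in mesenchyme had a median of -0.05 over 9 of 15 genes.

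Of the ureteric stalk and trunk genes 8 of 10 were above 0 and 2 below, where 44.7% of all genes were below. Their median was 0.17, against 0.025 over all genes. Hoxb7, Calb1, Krt8, Krt18, Cdh1 and Aqp2 of this list are also among the ureteric bud and collecting duct markers, so it is not particular to the stalk. Wnt7b, the stalk Wnt that patterns the medulla, stood at 7.87 and 7.96 in knockout and 7.45 and 7.50 in pools 1 and 2 (0.45 ± 0.11, SE; limma adjusted p = 0.8). Aqp2, the water channel of principal cells, stood at 0.74 ± 0.19. Below 0 were Calb1, a calcium-binding protein of the whole bud (-0.55 ± 0.25), and the cell cycle inhibitor gene Cdkn1c (-0.40 ± 0.15). Whether the tip and stalk lists differ was not tested. Without wild-type pool 2 in the comparison, that is against pool 1 alone, the stalk median was 0.04 and that of the tip genes -0.40.

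**Figure D5:**
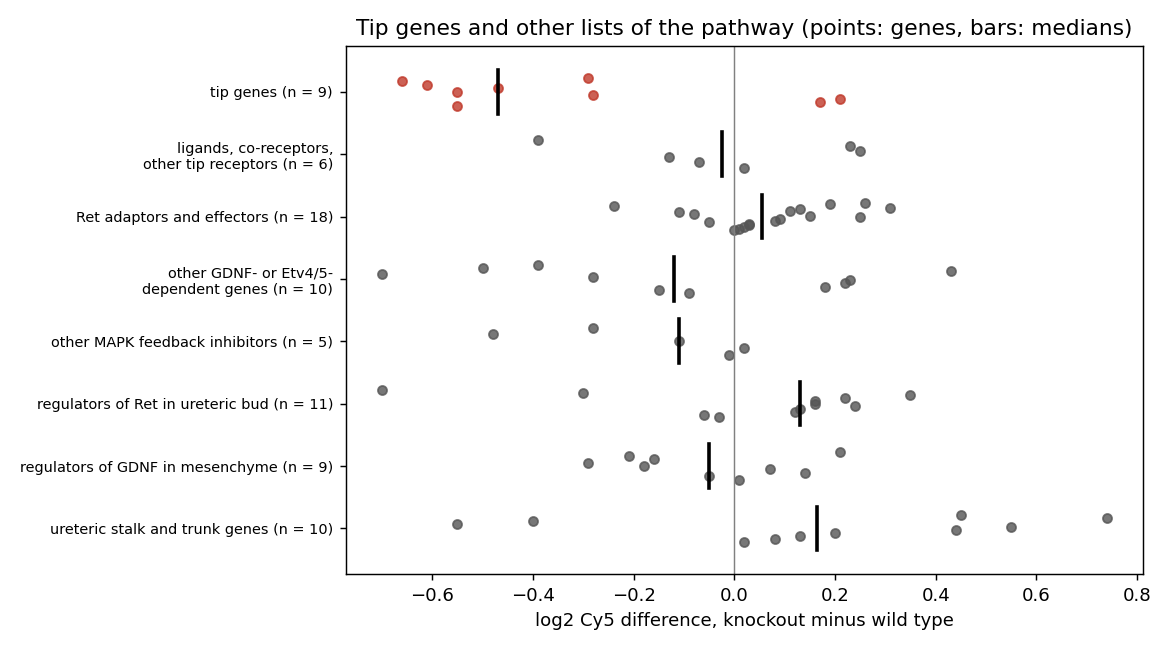
Log2 Cy5 difference, knockout minus wild type, of each measured gene in the tip list (red) and in 7 other lists of the pathway (grey), with black bars at the medians and n the genes measured. The tip median lies at -0.47, the other medians between -0.12 and 0.17, and 4 genes (Met, Lhx1, Spred2 and Emx2) appear in 2 lists.

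Markers of neighbouring cells were read beside these values. Of 8 nephron progenitor and cap mesenchyme markers 4 were measured (Cited1, Eya1, Osr1 and Crym), with summed Cy5 signals of 476 and 397 on the knockout arrays and 544 and 513 in pools 1 and 2, and a median of -0.16. Six2, a defining marker, was not well above background on any array, and Gdnf, Sall1 and Meox1 were not tested. Stromal markers, 6 of 8 measured, summed to 2460 and 2020 in knockout, 3070 in pool 1 and 1380 in pool 2. Endothelial markers, 3 of 6 measured with Cdh5, Pecam1 and Tek not among them, summed to 309 and 251 against 409 and 263. Proximal tubule markers, 2 of 6 measured, summed to 361 and 226 in knockout, 580 in pool 1 and 5210 in pool 2. Loop and distal tubule markers, 3 of 3 measured, summed to 1370 and 1240 against 1650 and 6970. Leukocyte markers, 3 of 5 measured, summed to 453 and 396 against 504 and 387, and erythroid markers, 2 of 4 measured, to 9340 and 7030 against 10700 and 3800. In each of these lists the pool 1 sum lay above both knockout sums. Against pool 1 the 5 genes that were lower in every usable channel by their brightest probe stood at 64.5% to 76.9%. The part of these cells in the tip gene values was not tested against either pool.

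The genes whose pattern over the 7 channels was most like the mean of the 9 tip genes were named by Pearson's r, among 2515 genes measured in all 7 and spanning at least 0.5 on the log2 scale. They were Apoc1 (r = 0.993), which encodes an apolipoprotein, the glutathione transferase genes Gstm1 (0.982) and Gstm3 (0.978), Asb4 (0.982), Tenm4 (0.982) and the MHC class II gene H2-Ab1 (0.977). The channels share arrays, slide and pools, so these values only describe a pattern. It was lowest on knockout array 2 (-0.30 from the mean), next on knockout array 1 (-0.09), and between 0.03 and 0.12 in the 5 wild-type channels. Among the 9 genes, Wnt11 (r = 0.95) and Gfra1 (0.94) followed it most closely, and Dusp6 (-0.43) ran against it. The r of Sox8 (-0.33) gives no direction, since Sox8 entered through the knockout arrays alone. It was not well above background in either dye of the pool 1 self array or in Cy3 of the pool 2 self array. Each of the 9 is part of that mean, and genes with a wide spread weigh more in it, so these values are partly built in.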

How the data were processed

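RNA of 4 two-colour Agilent whole mouse genome arrays was read with Agilent Feature Extraction 10.7.3.1, per the file headers. For every spot and dye the deposited files hold a median intensity, its local background and a processed signal. The deposited log10 ratio divides processed Cy5 by processed Cy3, per the file headers, and the deposited series table was identical to it in 45018 of 45018 spots on each array (tolerance 1e-06). A fold is a power of 2 of a log2 difference computed here.

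Accessions were matched to symbols of RefSeq (GRCm38.p6) for 22951 of 41174 probes. Cy5 intensities of all 4 arrays were corrected with normexp (offset 50), quantile normalized and averaged over spots of a probe. A patch of 305 spots on the pool 1 self array, dark in Cy5, was left out; it held no spot of the 9 genes, and 0 spots were saturated. Probes entered if well above background in at least 50% of their spots on both arrays of a genotype, and a non-uniformity flag was allowed on 1 array. The brightest probe stood for a gene. Tests were limma 3.58.1 in R 4.3.3, two-sided, with Benjamini-Hochberg adjustment over all genes and a threshold of 0.05, checked on simulated data. Summed marker signals are normalized intensities after the offset was taken off. The shared-array ratio was loess-normalized after normexp. The 7 usable channels were quantile normalized together for description. The number of arrays limits the precision.

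The 9 genes, the other lists, the choice of Cy5 and the alternatives were chosen with earlier results of these data known. The genes named are the 9, up to 4 of each other list by smallest p, the 6 most like in pattern, Atp6ap2, and markers. Cxcr4 and the values of Spry2, Spry4 and Gdnf were named after their values were seen. Alternatives covered background correction, offset, scaling, filters, probe choice, the dark patch, log ratios, a replicate block and each array left out.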

Additional observations from a re-analysis of the deposited data

How the results depend on the processing

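In limma 0 of 16052 genes and 0 of the 9 tip genes were called. None was called either under the other background correction, offset, scalings, filters, probe choice, patch and log-ratio alternatives. These tested 13347 to 33211 genes. Where all 4 arrays had to be well above background, 8 tip genes were tested, without Sox8. Leaving out 1 array gave 0 to 4132 genes called and 0 to 5 of the tip genes, with the highest counts without the pool 1 array (2470 higher, 1662 lower) and 7 genes, all higher, without the pool 2 array. Gfra1, Etv4, Etv5, Wnt11, Slco4c1 and Ret were below 0 in all 14 alternatives, Gfra1 between -1.25 and -0.13, Etv4 between -1.17 and -0.10, Etv5 between -0.70 and -0.05, Wnt11 between -1.43 and -0.02, Slco4c1 between -0.82 and -0.12 and Ret between -0.55 and -0.05. Dusp6 turned to -0.76 with the processed signal. Sox8 turned to -0.05 with 75th percentile scaling, -0.01 as a log ratio and, in an alternative added after seeing the data, -0.06 by its other probe, which was not well above background on any array and so gives no direction. Spry1 read 0.31 with median scaling, close to the median of all genes under it, 0.02 as a log ratio and 0.03 without the pool 1 array, and leaving out 1 array gave -0.59 to 0.03. The causes were not tested. Median scaling moved the median of all genes to 0.33 and that of the tip genes to -0.05, with 8 of 9 still below the former. The log ratio has no wild-type signal on knockout array 1 and gave a tip median of -0.28. With the titles' pool number as a replicate block 0 genes and 0 tip genes were called in limma (smallest adjusted p = 0.877, against 0.8 without the block). Deviations of same-numbered arrays had r = 0.038 across genes. The pools differed more in Cy5 than the knockout arrays did (SD over genes 0.42 against 0.15), so this r cannot show whether the arrays were paired.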
